A study of Mus musculus with 9 samples.

Results

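Lower glycolysis turns fructose bisphosphate into pyruvate, and lactate export removes the product when pyruvate is reduced instead of being burnt in mitochondria. The 10 genes described here encode these steps: Aldoa and Aldoc (aldolases), Tpi1 (triose phosphate isomerase), Gapdh (glyceraldehyde phosphate dehydrogenase), Pgk1 (phosphoglycerate kinase), Pgam1 (phosphoglycerate mutase), Eno1 (enolase), Pkm (pyruvate kinase), Ldha (lactate dehydrogenase A) and Slc16a3 (the monocarboxylate carrier MCT4). They were taken by symbol from a table of 18303 genes as the enzymes of these steps and their exporter, and all 10 passed the filter on low counts.

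The study sequenced the RNA of skin wound macrophages to compare a late with an early phase of repair in wild-type mice of the C57BL/6J strain. There were 5 libraries of cells taken 14 days after injury and 4 libraries of cells taken 4 days after it. Cells of both groups were sorted as CD45+CD11b+F4/80+ without any treatment, after dead cells had been excluded with 7-AAD. The labels give neither the age nor the number of animals, nor whether animals were pooled, so p-values here measure the spread between libraries, which may be technical.

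In glycolysis, the triose phosphates made by aldolase are oxidised by Gapdh, which yields NADH, and the phosphate groups are passed to ADP by Pgk1 and pyruvate kinase. Lactate dehydrogenase A turns NADH back into NAD+ by making lactate, and MCT4 carries lactate out of the cell together with a proton. Macrophages with inflammatory functions and cells short of oxygen are known to lean on this route. Several of its genes are textbook targets of the transcription factor HIF-1.

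Total counts ranged from 17982630 to 50445159 in day 14 libraries and from 26479011 to 57809914 in day 4 libraries. The counts of day 14 replicate 5 stopped within Aplp2 on chromosome 9: of 842 well counted genes beyond that point, 808 stood at 0 in that library, against 0 of 9584 genes before it. Pgk1 on chromosome X and Pkm on chromosome 9 lie beyond the stop, so they are given for 4 day 14 libraries and tested without replicate 5. The sort was visible in the RNA of both groups: Ptprc, which encodes CD45, averaged 1526 ± 82.7 CPM at day 14 and 1168 ± 97.3 CPM at day 4 (SD, n = 5 and 4), Itgam (CD11b) averaged 1292 ± 78.4 CPM and 1754 ± 176 CPM, and Emr1 (F4/80) averaged 1456 ± 120 CPM and 1121 ± 59.1 CPM. CPM stands for counts per 1000000 of a library's counts before the stop, after TMM scaling, which corrects for differences in composition between libraries.

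The genes of lower glycolysis were lower in day 14 than in day 4 macrophages at every enzymatic step from aldolase to lactate dehydrogenase. Each of the 13322 genes that passed the filter was tested with edgeR's quasi-likelihood test, p-values were adjusted by the Benjamini-Hochberg method over them, and an adjusted p under 0.05 was called. By this test 9 of the 10 genes fell, 0 rose and 1, Slc16a3, did not pass. Of all genes tested, 14.9% fell and 16.1% rose, so that 31.1% changed. The libraries of the 2 days did not overlap for the same 9 genes, with day 14 lower, as was the case for 12.7% of all genes tested. For 8 of the 10 genes the fall passed the test and was at least 2-fold, against 4.24% of all genes tested. The median log2 fold change of day 14 over day 4 was -1.17 for the 10 genes and 0.01 over all genes tested. These are bulk samples, in which fewer cells of a type and less RNA per cell cannot be told apart.

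**Figure D1:**
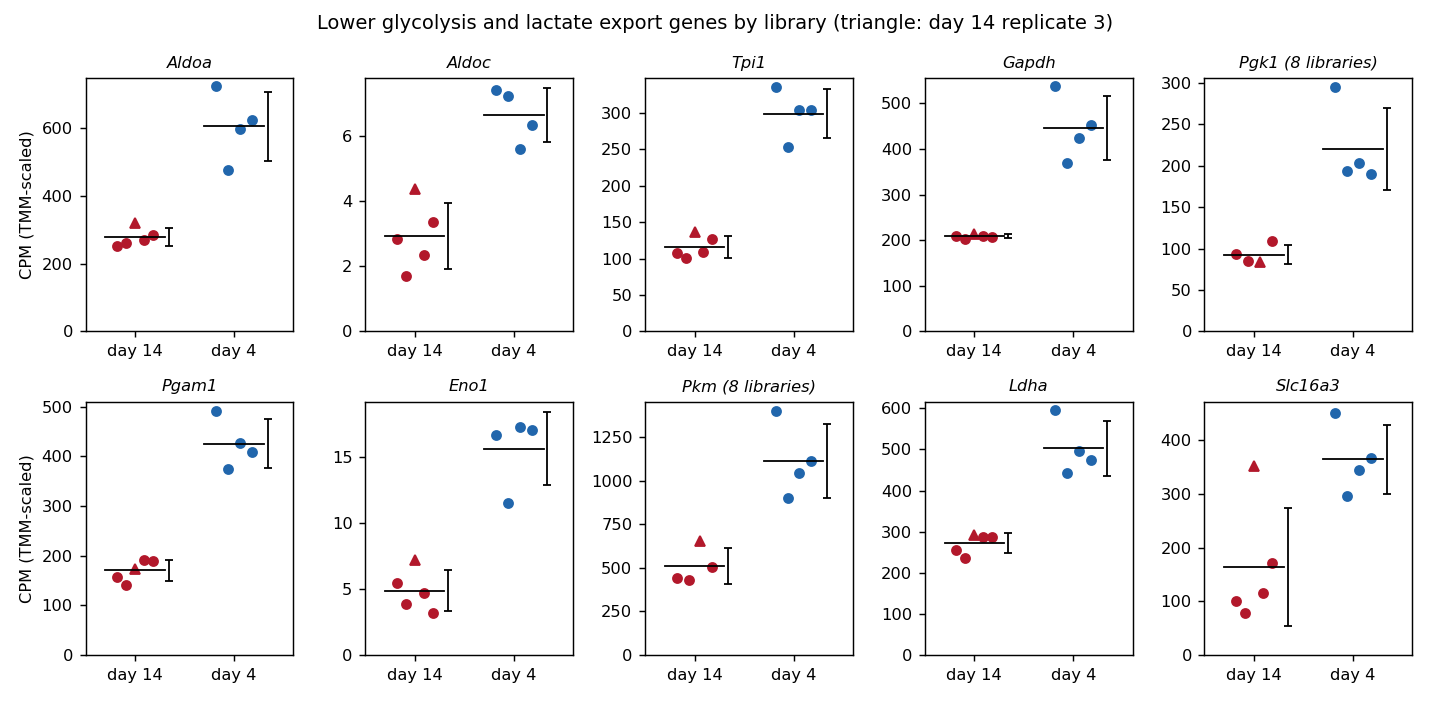
TMM-scaled CPM of the 10 genes in each library, day 14 on the left (red) and day 4 on the right (blue), with the mean as a line and the SD as an error bar; the triangle is day 14 replicate 3. In 9 panels all day 14 points lie under all day 4 points, and in the Slc16a3 panel the triangle, at 351 CPM, lies among the day 4 points.

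Aldolase cleaves fructose bisphosphate into a pair of triose phosphates. Aldoa (chr7:126795234-126800994, minus strand, 9 exons; all gene positions are on GRCm38.p6, the assembly named mm10) had 253, 261, 321, 269 and 286 CPM in day 14 replicates 1 to 5, against 724, 477, 599 and 625 CPM in day 4 replicates 1 to 4. Every day 14 library was lower than every day 4 library, and the log2 fold change was -1.13 ± 0.12 (SE; adjusted p = 3.50e-05 by edgeR's quasi-likelihood test, the test of every adjusted p of a gene in this text). The isoenzyme best known from brain, Aldoc (chr11:78323073-78327781, plus strand), was present at a far lower level, with 2.84, 1.71, 4.37, 2.35 and 3.37 CPM at day 14 and 7.40, 7.23, 5.61 and 6.35 CPM at day 4. Its libraries did not overlap either, and it fell by a log2 fold change of -1.18 ± 0.23 (adjusted p = 0.00226). Behind these values stood 40 to 129 counts of Aldoc in day 14 libraries and 171 to 353 in day 4 libraries.

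The log2 ratio of Aldoa to Aldoc within a library, with 0.5 CPM added to each, averaged 6.39 ± 0.33 at day 14 and 6.40 ± 0.30 at day 4 (SD, n = 5 and 4). The difference of -0.01 was smaller than the spread between libraries (exact two-sided permutation test over libraries, p = 0.984, adjusted p = 0.984 over 3 ratios). With so few libraries this test cannot give a very small p.

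Triose phosphate isomerase interconverts the products of aldolase. Tpi1 (chr6:124810586-124814158, minus strand, 7 exons) had 107, 101, 136, 109 and 127 CPM in the day 14 libraries and 336, 254, 304 and 304 CPM in the day 4 libraries. The days were well apart, and Tpi1 had the lowest adjusted p of the 10 genes, with a 2.58-fold fall (log2 fold change -1.37 ± 0.11, adjusted p = 4.72e-06).

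Gapdh (chr6:125161852-125166467, minus strand, 7 exons) had 210, 202, 214, 209 and 206 CPM at day 14, against 538, 370, 423 and 453 CPM at day 4. Day 14 libraries lay close together, with an SD of 2.08% of the mean, the smallest of the 10 genes on either day, while at day 4 the SD was 15.8% of the mean. Gapdh fell 2.14-fold (log2 fold change -1.10 ± 0.10, adjusted p = 1.34e-05). Part of what the deposited table holds for this enzyme is listed under another name, Gm12070, a processed pseudogene on chromosome 11. The Gapdh mRNA and Gm12070 were aligned over 1002 bases, which cover the whole coding sequence, and differed by 1 substitution, G601A, counted from 1 at the 5′ end of the Gapdh mRNA, with the Gapdh base first. The 61 bases around it, mRNA positions 571 to 631 in the GENCODE transcripts, are shown because they hold the difference, in capitals, by which reads of the aligned part could be assigned to either locus.
Gapdh: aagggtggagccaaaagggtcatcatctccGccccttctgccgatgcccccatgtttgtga
Gm12070: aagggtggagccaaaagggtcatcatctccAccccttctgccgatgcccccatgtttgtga

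Gm12070 had 215, 231, 318, 236 and 266 CPM at day 14 and 730, 483, 561 and 618 CPM at day 4, and it fell 2.36-fold (log2 fold change -1.24 ± 0.14, adjusted p = 5.04e-05). It took between 50.6% and 59.8% of the counts of the pair in each library, and its largest share was in day 14 replicate 3. With both rows added up, Gapdh had 425, 433, 532, 445 and 472 CPM at day 14 and 1268, 853, 984 and 1071 CPM at day 4. The sum fell 2.26-fold (log2 fold change -1.18 ± 0.12, adjusted p = 2.34e-05); either row and the sum thus had the same direction. In GENCODE release M21, 157 other genes match the Gapdh mRNA at 90% identity or more over at least 300 bases, of which 7 have a row in the table.

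Phosphoglycerate kinase makes ATP from the product of Gapdh. Pgk1 (chrX:106187100-106203699, plus strand, 11 exons) had 93.6, 84.4, 83.7 and 109 CPM in day 14 replicates 1 to 4, against 295, 194, 203 and 190 CPM at day 4. Day 4 replicate 1 stood above the other day 4 libraries, and the days did not overlap. Pgk1 fell 2.38-fold (log2 fold change -1.25 ± 0.15, adjusted p = 0.000157, 8 libraries). Phosphoglycerate mutase then moves the remaining phosphate group. Pgam1 (chr19:41911871-41918665, plus strand, 4 exons) had 157, 140, 173, 192 and 189 CPM at day 14 and 492, 374, 428 and 409 CPM at day 4. It fell 2.50-fold (log2 fold change -1.32 ± 0.11, adjusted p = 7.52e-06), and its lowest day 4 library was well above its highest day 14 library.

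Enolase makes phosphoenolpyruvate. Eno1 (chr4:150236708-150248879, plus strand, 12 exons) was listed at 5.47, 3.85, 7.17, 4.71 and 3.15 CPM at day 14 and at 16.7, 11.5, 17.3 and 17.1 CPM at day 4. Its row alone showed the steepest fall of the 10 genes, 3.20-fold (log2 fold change -1.68 ± 0.21, adjusted p = 0.000117), and it rested on 58 to 248 counts in day 14 libraries and 293 to 952 in day 4 libraries. Nearly all enolase counts stood elsewhere: Gm5506, which RefSeq names Eno1b, is an intronless gene on chromosome 18 that matches 85.6% of the Eno1 mRNA at 99.48% identity, and it held 98.1% to 99.3% of the counts of the pair in each library. In all libraries together Gm5506 had 186691 counts and Eno1 had 3103.

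Gm5506 had 351, 326, 462, 393 and 435 CPM at day 14 and 1089, 708, 877 and 939 CPM at day 4, and it fell 2.30-fold (log2 fold change -1.20 ± 0.14, adjusted p = 5.62e-05). Added up, the pair had 357, 330, 469, 398 and 438 CPM at day 14 and 1105, 720, 894 and 956 CPM at day 4, with no overlap between the days. The sum fell 2.31-fold (log2 fold change -1.21 ± 0.14, adjusted p = 5.32e-05), a smaller change than that of the Eno1 row. Reads of the spliced Eno1 mRNA and of the intronless copy cannot be told apart over most of their length, so the level and the fold change of the Eno1 row are uncertain.

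**Figure D2:**
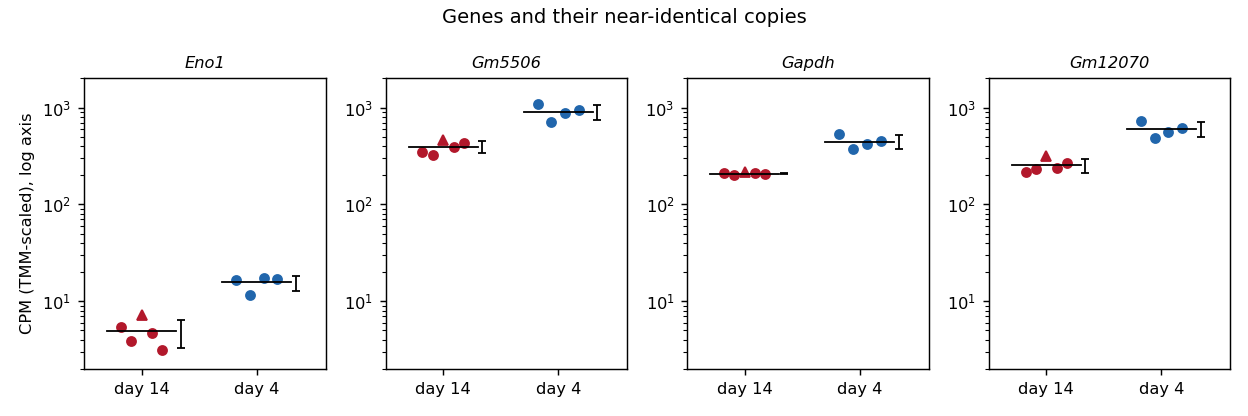
TMM-scaled CPM on a log axis for Eno1, its near-identical copy Gm5506, Gapdh and its copy Gm12070, by library, day 14 left and day 4 right, with mean lines and SD bars; the triangle is day 14 replicate 3. The Eno1 row lies between 3.15 and 17.3 CPM and its copy between 326 and 1089 CPM, whereas Gapdh and its copy have like levels, and in each panel the day 14 libraries lie under the day 4 libraries.

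At the same identity and length, GENCODE holds 6 other genes for Eno1, Gm5506 among them, 11 for Ldha, 6 for Pkm, 4 for Pgk1, 3 each for Aldoa and Pgam1, 2 for Tpi1 and 0 for Aldoc and Slc16a3. For the genes other than Gapdh and Eno1, those with a row were Gm13315 for Ldha, with 9 counts over all libraries, and Aldoart1, a copy of Aldoa with 93.10% identity, which averaged 6.08 ± 0.292 CPM at day 14 and 12.9 ± 1.90 CPM at day 4 (SD, n = 5 and 4). Since the library kit leaves the strand unmarked, a gene's reads cannot be told from those of a gene that overlaps it on the opposite strand. Exons of Fam57b overlap those of Aldoa, and Fam57b averaged 0.234 CPM in day 14 libraries and 0.543 CPM in day 4 libraries. Spsb2, whose exons overlap those of Tpi1, averaged 9.95 CPM in day 14 libraries and 12.5 CPM in day 4 libraries. Iffo1, whose exons overlap those of Gapdh, averaged 18.3 CPM in day 14 libraries and 12.9 CPM in day 4 libraries. Each of these rows was far smaller than that of its partner.

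Pyruvate kinase makes pyruvate and ATP. Pkm (chr9:59656576-59679372, plus strand, 11 exons), whose row does not separate the isoforms M1 and M2, had the highest CPM of the 10 genes, with 441, 430, 656 and 506 CPM in day 14 replicates 1 to 4 and 1401, 899, 1042 and 1114 CPM at day 4. Day 14 replicate 3 was the highest of its day and still lay under the lowest day 4 library. Pkm fell 2.19-fold (log2 fold change -1.13 ± 0.17, adjusted p = 0.000518, 8 libraries).

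Lactate dehydrogenase A reduces pyruvate to lactate. Ldha (chr7:46842274-46855627, plus strand, 8 exons) had 256, 236, 292, 288 and 286 CPM at day 14, against 597, 443, 497 and 475 CPM at day 4. The days did not overlap, and Ldha had the smallest fall of the 10 genes, 1.85-fold (log2 fold change -0.89 ± 0.11, adjusted p = 7.76e-05). Ldhb, whose subunit is the one common in heart, was scarce, with 2.20 ± 0.396 CPM at day 14 and 4.21 ± 0.827 CPM at day 4, and fell by a log2 fold change of -0.93 ± 0.19 (adjusted p = 0.00361). The log2 ratio of Ldha to Ldhb averaged 6.66 ± 0.33 at day 14 and 6.75 ± 0.41 at day 4 (SD, n = 5 and 4). This difference of -0.08 lay within the spread between libraries (exact two-sided permutation test, p = 0.762, adjusted p = 0.984).

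Slc16a3 (chr11:120948484-120959000, plus strand, 6 exons) encodes the lactate exporter MCT4. It had 101, 78.7, 351, 116 and 171 CPM in day 14 replicates 1 to 5, against 451, 296, 344 and 366 CPM at day 4. Replicate 3 lay within the range of day 4, so that the days overlapped, and the SD at day 14 was 67.3% of the mean. The log2 fold change of -1.16 ± 0.40 did not pass the test (adjusted p = 0.0534). Without day 14 replicate 3 it was -1.65 ± 0.22 (adjusted p = 0.000245), and the other day 14 libraries lay under the day 4 libraries.

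The library with the high Slc16a3 value also stood out in neutrophil markers. Summed over those before the stop, which leaves out Ngp and Camp, these markers had 380, 255, 1794, 376 and 834 CPM in day 14 replicates 1 to 5 and 1745, 627, 710 and 735 CPM in day 4 replicates 1 to 4. The highest sum of each day was thus in the library with the highest Slc16a3 of that day. This match was not particular to Slc16a3. Among the genes of lower glycolysis and lactate export, day 14 replicate 3 was the highest of its day for 8. Day 4 replicate 1 was the highest of its day for 9. Of 5 neutrophil markers tested, 0 rose and 0 fell between the days. The most abundant of these markers on average was S100a9, which encodes a calcium-binding protein of mature neutrophils and had 880 CPM in day 14 replicate 3, 390 CPM in replicate 5 and as little as 73.0 CPM in the other day 14 libraries, against 971, 283, 322 and 348 CPM in the day 4 libraries. Day 14 replicate 3 was also the highest library of its day for S100a8 (361 CPM), the chemokine receptor gene Cxcr2 (159 CPM) and the growth factor receptor gene Csf3r (359 CPM), whereas the lowest, replicate 2, had 26.9, 13.3 and 106 CPM of these genes. Retnlg was the exception among the 5 tested, with 35.1 CPM in replicate 3 and 26.6 to 43.8 CPM over the day 14 libraries. Ngp and Camp, too low to be tested, were highest in replicate 1 of the day 14 libraries. In replicates 1 to 4 Ngp had 3.53, 1.33, 0.267 and 0.107 CPM, and Camp had 0.617, 0.214, 0.0446 and 0 CPM. The granule genes Elane and Mpo, which are transcribed mainly in neutrophil precursors, were close to 0, as Elane averaged 0 CPM in day 14 libraries and 0.00983 CPM in day 4 libraries, and Mpo averaged 0.314 CPM in day 14 libraries and 0.290 CPM in day 4 libraries. The part of these cells in the Slc16a3 values was not tested.

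Of the other monocarboxylate carriers and the partners that bring them to the membrane, 1 carrier rose and 1 partner fell. Slc16a1, which encodes MCT1, averaged 112 ± 19.2 CPM at day 14 and 85.9 ± 17.4 CPM at day 4, a log2 fold change of 0.39 ± 0.15 that did not pass (adjusted p = 0.0688). Slc16a7, which encodes MCT2, rose slightly, to 44.7 ± 5.84 CPM at day 14, against 35.4 ± 1.18 CPM at day 4 (log2 fold change 0.34 ± 0.10, adjusted p = 0.0224). The log2 ratio of Slc16a3 to Slc16a1 was -0.30, -0.46, 1.93, -0.25 and 0.80 in day 14 replicates 1 to 5 and 2.21, 1.50, 2.29 and 2.33 in day 4 replicates 1 to 4. It was 1.74 lower on average at day 14, with 1 of the 5 day 14 libraries within the day 4 range (difference -1.74, exact two-sided permutation test, p = 0.0317, adjusted p = 0.0952 over 3 ratios), which did not pass after adjustment. Basigin, the partner of MCT1 and MCT4 encoded by Bsg, fell to 149 ± 9.66 CPM at day 14, against 252 ± 32.7 CPM at day 4 (log2 fold change -0.76 ± 0.10, adjusted p = 0.000133). Embigin, the partner of MCT2 encoded by Emb, averaged 330 ± 15.8 CPM at day 14 and 339 ± 28.0 CPM at day 4 (log2 fold change -0.04 ± 0.08, adjusted p = 0.749).

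Among other isoenzymes of these steps, those typical of other tissues were low. Eno2, the neuronal enolase, rose to 13.1 ± 2.30 CPM at day 14, against 9.17 ± 1.62 CPM at day 4, although its libraries overlapped (log2 fold change 0.52 ± 0.16, adjusted p = 0.0266). The muscle enolase Eno3 had 7.71 ± 1.52 CPM at day 14 and 6.78 ± 1.43 CPM at day 4, and the muscle mutase Pgam2 had 0.851 ± 0.367 CPM and 0.638 ± 0.302 CPM; neither passed (adjusted p = 0.474 and 0.550). Pgam5, a mitochondrial phosphatase of the mutase family, had 18.2 ± 1.58 CPM at day 14 and 18.8 ± 2.21 CPM at day 4 (adjusted p = 0.800). Ldhd, the dehydrogenase of D-lactate, fell to 0.643 ± 0.171 CPM at day 14, against 1.50 ± 0.292 CPM at day 4 (adjusted p = 0.00680). Eno4 had 0.561 ± 0.389 CPM at day 14 and 0.235 ± 0.181 CPM at day 4 (adjusted p = 0.163). The germ cell genes Gapdhs, Pgk2 and Ldhc, and Slc16a8 were too low to be tested, with 0.0109, 0.0171, 0.243 and 0.0349 CPM on average in day 14 libraries and 0, 0, 0.0811 and 0.0391 CPM in day 4 libraries. Of the 11 genes of this list tested, 2 rose and 3 fell, with a median log2 fold change of 0.18. The count of those that rose was 0 without day 14 replicate 1 or 4 or day 4 replicate 4, and 1 without day 14 replicate 2 or 5 or day 4 replicate 3.

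**Figure D3:**
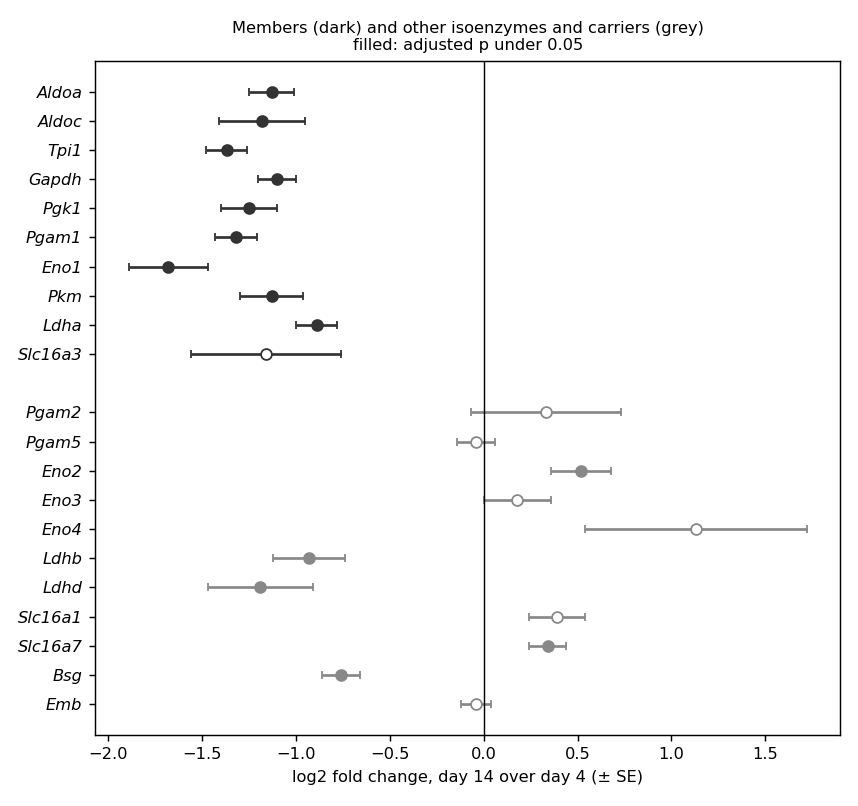
Log2 fold change of day 14 over day 4 with its SE for the 10 genes (dark) and for other isoenzymes and carriers (grey); filled points passed an adjusted p of 0.05. The dark points lie between -1.68 and -0.89 and 9 of the 10 are filled, whereas the grey points lie on both sides of 0.

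Levels of different genes were compared per kilobase of the annotated mRNA. In day 14 macrophages the order by mean CPM per kilobase was Pkm (209), Aldoa (184), Ldha (154), Gapdh (147), Pgam1 (95.8), Tpi1 (72.3), Pgk1 (50.8), Slc16a3 (37.7), Eno1 (2.40) and Aldoc (1.05). In day 4 macrophages it was Pkm (458), Aldoa (401), Gapdh (314), Ldha (285), Pgam1 (240), Tpi1 (187), Pgk1 (121), Slc16a3 (84.0), Eno1 (7.72) and Aldoc (2.39). Ldha and Gapdh changed places, but their libraries overlapped on both days, as did those of Pkm and Aldoa. With copies added, Gapdh was highest, at 325 CPM per kilobase at day 14 and 735 at day 4, and its libraries did not overlap those of Pkm. Eno1 with its copy came to 197 CPM per kilobase at day 14 and 453 at day 4, between Pkm and Aldoa, and overlapped both.

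Within each day the same libraries were often the highest or the lowest. Day 14 replicate 3 held the highest value of its day for 8 of the 10 genes and replicate 4 for the other 2, while replicate 2 held the lowest for 7. Among day 4 libraries, replicate 1 held the highest value for 9 genes and replicate 2 the lowest for 8. The 8 genes before the stop together took 0.107%, 0.104%, 0.153%, 0.113% and 0.130% of the counts in day 14 replicates 1 to 5, against 0.298%, 0.225%, 0.270% and 0.275% in day 4 replicates 1 to 4. The days were apart in this share too, although day 14 replicate 3 and day 4 replicate 2 lay nearest to each other.

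Most fibroblast markers fell, as did the glycolytic genes. Of 16 fibroblast markers tested, 0 rose and 11 fell. Dcn, Lum, Postn, Mmp2 and Fn1 did not pass, and their libraries overlapped. Their log2 fold changes were -0.37, -0.03, -0.09, -0.16 and -0.14. Summed over the markers before the stop, which leaves out Thy1 and Loxl1, the level was 10313 to 14866 CPM in day 14 libraries and 15844 to 25833 CPM in day 4 libraries. Macrophages also express Fn1, the most abundant of these markers at day 14, which averaged 4927 CPM at day 14 and 5415 CPM at day 4, whereas Col3a1, a fibrillar collagen gene, averaged 3254 CPM at day 14 and 6379 CPM at day 4. In a fit that held the mean log2 level of the fibroblast markers as a covariate, 7 of the 10 genes were called lower. Their log2 fold changes were -1.24 for Aldoa, -1.33 for Tpi1, -1.29 for Gapdh, -1.51 for Pgk1, -1.31 for Pgam1, -2.00 for Eno1 and -0.90 for Ldha. Aldoc, at -0.74 (adjusted p = 0.226), and Pkm, at -1.17 (adjusted p = 0.0542), lost their call, and Slc16a3 stood at -0.61 (adjusted p = 0.626). In that fit 387 genes fell and 576 rose over the whole table, against 1990 and 2149 without the covariate. The marker sums of the days did not overlap, so this fit cannot cleanly separate the day from the marker level. Standard errors of the 10 genes were all larger in it, for instance 0.32 for Pkm and 0.19 for Tpi1, against 0.17 and 0.11 without the covariate.

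Markers of other cells moved in either direction. Of 9 macrophage markers tested, 3 rose and 4 fell, with a sum of 21492 to 24919 CPM at day 14 and 19563 to 21759 CPM at day 4. Of 10 dendritic cell markers, 6 rose and 0 fell, with a sum of 327 to 405 CPM at day 14 and 172 to 256 CPM at day 4. Of 6 erythroid and platelet markers, 4 rose and 2 fell, with a sum of 416 to 481 CPM at day 14 and 669 to 771 CPM at day 4, most of it Pf4. Skeletal muscle, a glycolytic tissue, gave sums of 11.9 to 35.3 CPM at day 14 and 9.43 to 37.5 CPM at day 4, and 0 of its 9 markers changed. Markers that rose and fell numbered 3 and 0 of 3 for eosinophils, 4 and 0 of 6 for keratinocytes, 2 and 0 of 6 for endothelium, 2 and 0 of 2 for T cells and 2 and 1 of 5 for mast cells, and none of these sums passed 115 CPM in any library. The 2 T cell markers tested were Cd4 and Cd2, whereas Cd3e, Cd3d, Cd3g, Cd8a and Lck were too low to be tested. Cd3e averaged 0.0111 CPM at day 14 and 0.0277 CPM at day 4, and Lck averaged 0.147 CPM and 0.169 CPM. The part of all these other cells in the results was not tested.

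Depth differed within each day, and 1 of 5 day 14 libraries and 2 of 4 day 4 libraries held over 30000000 counts. In the 6 libraries of under 30000000 counts, 1044 genes fell and 1031 rose over the whole table, against 1990 and 2149 in all libraries. Within these 6 libraries, the same 9 genes were called lower. Their log2 fold changes in these libraries ranged from -0.93 for Ldha to -1.59 for Eno1, and Slc16a3 was again not called (log2 fold change -1.07, adjusted p = 0.348).

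Upstream of aldolase, a glucose transporter and 2 enzymes fell. Over all genes tested, 16.1% rose and 14.9% fell, shares to be set beside the counts of each list given here. Of 14 genes of glucose uptake and upper glycolysis tested, 0 rose and 3 fell, and the median log2 fold change was -0.18. Without day 4 replicate 2, 5 of them fell, and without day 4 replicate 1, 1 rose. Slc2a1, which encodes the glucose transporter GLUT1, fell to 135 ± 37.1 CPM at day 14, against 352 ± 63.0 CPM at day 4 (log2 fold change -1.38 ± 0.19, adjusted p = 0.000210). Pfkl, the liver-type phosphofructokinase, fell to 47.7 ± 11.1 CPM, against 130 ± 23.5 CPM at day 4 (log2 fold change -1.44 ± 0.17, adjusted p = 7.42e-05). Gpi1, glucose phosphate isomerase, fell to 136 ± 2.75 CPM, against 231 ± 36.9 CPM at day 4 (log2 fold change -0.77 ± 0.10, adjusted p = 0.000193). Pfkfb3, which makes an activator of phosphofructokinase and was the most abundant gene of the list, had 460 ± 36.0 CPM at day 14 and 526 ± 74.1 CPM at day 4 (adjusted p = 0.192).

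Of 21 genes tested that decide what becomes of pyruvate, 1 rose (Pdk4) and 6 fell (Pdk1, Me1, Pdhx, Pdpr, Pcx and Gpt), with a median log2 fold change of 0.02. The other 14 did not pass. The share that changed in either direction was near that of all genes tested (31.1%). By direction, 14.9% of all genes tested fell and 16.1% rose. Pdk1, a kinase that shuts off pyruvate dehydrogenase and a known HIF-1 target, fell to 20.5 ± 2.32 CPM at day 14, against 62.7 ± 7.85 CPM at day 4 (log2 fold change -1.61 ± 0.11, adjusted p = 1.21e-06). The malic enzyme gene Me1 fell to 3.33 ± 0.511 CPM, against 7.86 ± 3.54 CPM (log2 fold change -1.24 ± 0.28, adjusted p = 0.00745, 8 libraries), and Pdhx, a subunit of pyruvate dehydrogenase, fell to 13.1 ± 0.925 CPM, against 16.2 ± 0.319 CPM at day 4 (log2 fold change -0.31 ± 0.09, adjusted p = 0.0211). Got1, a cytosolic transaminase and the most abundant gene here, had 342 ± 47.4 CPM at day 14 and 379 ± 43.8 CPM at day 4 (adjusted p = 0.352). These counts were small and rested on single libraries: with each library left out in turn, 2 to 5 fell and 0 to 4 rose. Those that fell were 2 without day 14 replicate 1 and 3 without day 14 replicate 2 or 4 or day 4 replicate 4; 4 rose without day 14 replicate 3, and 0 rose without day 14 replicate 1, 2, 4 or 5 or day 4 replicate 3 or 4.

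Side branches that leave or rejoin the pathway split in direction: of 12 genes tested, 2 rose (Fbp1 and Glo1) and 4 fell (Gpd1, Gpd2, Minpp1 and Hagh), with a median log2 fold change of -0.23. Gpd2, the mitochondrial glycerophosphate dehydrogenase, had 81.6 ± 12.2 CPM at day 14 and 120 ± 26.4 CPM at day 4 (log2 fold change -0.56 ± 0.15, adjusted p = 0.0123), and Hagh, which completes the removal of methylglyoxal, had 13.0 ± 2.26 CPM and 21.0 ± 3.98 CPM (adjusted p = 0.00464). Fbp1, the gluconeogenic fructose bisphosphatase, rose at a very low level, with 0.515 ± 0.189 CPM at day 14 and 0.116 ± 0.0692 CPM at day 4 (adjusted p = 0.00442). Without day 14 replicate 2 or day 4 replicate 3 or 4, 2 of these genes fell, and without day 14 replicate 1, 2, 3 or 4, 1 rose. In the pentose phosphate pathway, which shares glucose phosphate with glycolysis, 1 of 10 genes rose (Prps2) and 3 fell (H6pd, Pgd and Taldo1), with a median log2 fold change of -0.20, and without day 14 replicate 3, 2 rose. Pgd, phosphogluconate dehydrogenase, had 190 ± 16.5 CPM at day 14 and 279 ± 30.2 CPM at day 4 (log2 fold change -0.55 ± 0.10, adjusted p = 0.00115). H6pd, which runs the oxidative steps in the endoplasmic reticulum, had 39.5 ± 5.06 CPM and 82.5 ± 12.2 CPM (log2 fold change -1.07 ± 0.12, adjusted p = 4.74e-05), and Prps2, which makes phosphoribosyl pyrophosphate, had 57.1 ± 8.47 CPM and 33.8 ± 1.79 CPM (log2 fold change 0.76 ± 0.11, adjusted p = 0.000579, 8 libraries), in that order of days.

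HIF-1 consists of an oxygen-regulated alpha subunit, encoded by Hif1a, and a constant partner, encoded by Arnt; the prolyl hydroxylases encoded by the Egln genes mark the alpha subunit for destruction when oxygen is present. Hif1a fell to 396 ± 59.2 CPM at day 14, against 734 ± 121 CPM at day 4 (log2 fold change -0.89 ± 0.13, adjusted p = 0.000398), and the days did not overlap. Egln3, itself induced by hypoxia, fell 7.41-fold, to 7.88 ± 4.54 CPM, against 57.7 ± 17.2 CPM (adjusted p = 0.000454), and Egln1 fell to 49.1 ± 3.25 CPM, against 77.0 ± 7.58 CPM at day 4 (adjusted p = 0.000157). Of 10 genes of HIF and oxygen sensing tested, 1 rose (Hif3a) and 4 fell (Hif1a, Egln1, Egln3 and Vhl), with a median log2 fold change of -0.15. Hif3a was not called without day 14 replicate 1, 2, 4 or 5 or day 4 replicate 2, and the count that rose was then 0.

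Known hypoxia-induced genes outside glycolysis were mostly lower at day 14: of 24 tested, 0 rose and 20 fell, with a median log2 fold change of -1.44. These counts include Egln3, also counted among the genes of HIF and oxygen sensing, and Pdk1, also counted among the genes of pyruvate. Bnip3, a mitophagy receptor, fell 4.10-fold, to 25.4 ± 3.77 CPM at day 14, against 105 ± 20.8 CPM at day 4 (adjusted p = 1.29e-06). P4ha2, a collagen prolyl hydroxylase that fibroblasts express too, fell 4.49-fold, to 9.95 ± 1.61 CPM, against 44.6 ± 10.1 CPM (adjusted p = 2.61e-06). Vegfa, the endothelial growth factor and the most abundant of the list, fell 2.39-fold, to 333 ± 49.7 CPM, against 794 ± 125 CPM (adjusted p = 2.74e-05). With the fibroblast covariate 15 of the 24 were called lower. Among 9 other regulators of glycolytic genes tested, 3 rose (Max, Nfe2l2 and Stat3) and 0 fell, with a median log2 fold change of 0.23. Nfe2l2, which encodes the stress factor NRF2, had 895 ± 118 CPM at day 14 and 682 ± 102 CPM at day 4 (log2 fold change 0.39 ± 0.12, adjusted p = 0.0300), Stat3 had 605 ± 22.1 CPM and 490 ± 45.3 CPM (adjusted p = 0.0169), and Max, the partner of Myc, had 117 ± 9.75 CPM and 99.8 ± 4.34 CPM (adjusted p = 0.0487). The number that rose was 1 without day 14 replicate 1 or 2 and 0 without day 4 replicate 3 or 4.

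**Figure D4:**
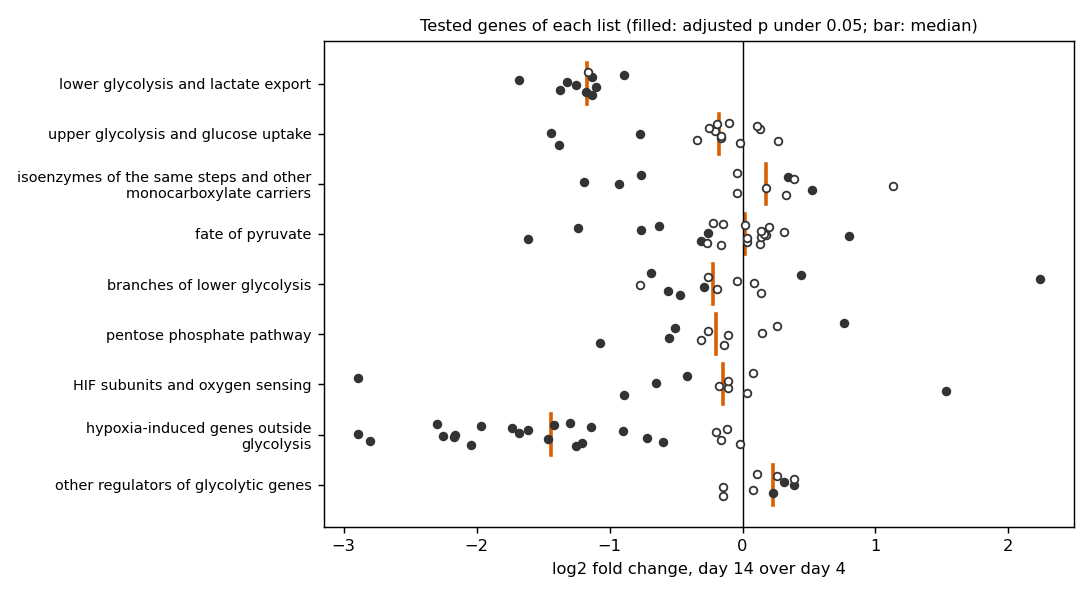
Log2 fold change of day 14 over day 4 for each tested gene, by list, with the list's median as a bar; filled points passed an adjusted p of 0.05. The 10 genes of lower glycolysis and lactate export, with a median of -1.17, and the hypoxia-induced genes, with a median of -1.44, all lie to the left of 0, and the medians of the other lists lie between -0.23 and 0.23.

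The promoters were searched for the core of the hypoxia response element, the short sequence to which HIF binds, as the letters ACGTG and GCGTG on both strands of the 250 bases before each RefSeq start. Of the 17 promoter windows that RefSeq gives for the 10 genes, 14 (82.4%) held at least 1 core, and 9 of the 10 genes had such a window, Tpi1 being the exception. Over all 32851 promoters 38.6% held a core, 16.6% ACGTG and 28.2% GCGTG, and over the 12642 windows of the genes tested the share was 54.3%. The windows of the 10 genes were also richer in G and C, with a median of 62.8%, against 59.6% for the genes tested and 52.4% for all promoters. ACGTG was found for Aldoa, Pgk1, Pgam1, Pkm, Ldha and Slc16a3, and GCGTG for Aldoc, Gapdh, Pgam1, Eno1 and Ldha. Windows of Aldoa overlap and share a core, and windows of Eno1 overlap and share cores, so these cores were counted more than once. Exons of Eno1 itself cover 245 and 250 of the 250 bases of its overlapping windows. Exons of the same gene also cover part of windows of Aldoa, Aldoc, Tpi1, Pkm and Slc16a3. No GENCODE transcript begins at the starts of the Pgam1 and Eno1 windows, or at a start of Aldoc, Pkm and Ldha. All these windows held a core. The other Pkm window held 0 cores, and the other Ldha window held 1, GCGTG. A match is no evidence of binding, and no binding was measured here.

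Windows of 3 genes are given because they show cores in the promoters of an ATP-forming enzyme, of lactate dehydrogenase and of Gapdh. Each is read 5′ to 3′ on the strand of its gene, from RefSeq on GRCm38.p6, with the cores in capitals: ACGTG and GCGTG on the strand shown, CACGT and CACGC where the core lies on the other strand. The Pgk1 window (chrX:106186850-106187099, plus strand) has ACGTG 150 bases before the start and again, on the other strand, 131 bases before it. The Ldha window (chr7:46845554-46845803, plus strand; no GENCODE transcript begins at this RefSeq start) holds CACGTG, which reads the same on both strands and so counts as a core on each, at 145 and at 48 bases before the start, and a further core at 34. The Gapdh window (chr6:125165774-125166023, minus strand) has GCGTG 54 bases before the start on the other strand and 44 bases before it on the strand shown.
Pgk1: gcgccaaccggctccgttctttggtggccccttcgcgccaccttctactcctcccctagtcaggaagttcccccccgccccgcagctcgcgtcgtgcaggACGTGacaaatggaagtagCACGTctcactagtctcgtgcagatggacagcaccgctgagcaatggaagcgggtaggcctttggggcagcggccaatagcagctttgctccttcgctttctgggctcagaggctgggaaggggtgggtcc
Ldha: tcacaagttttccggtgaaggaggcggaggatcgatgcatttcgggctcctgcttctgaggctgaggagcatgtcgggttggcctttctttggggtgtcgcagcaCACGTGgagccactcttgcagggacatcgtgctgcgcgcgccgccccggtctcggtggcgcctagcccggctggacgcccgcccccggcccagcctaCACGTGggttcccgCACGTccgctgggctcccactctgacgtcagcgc
Gapdh: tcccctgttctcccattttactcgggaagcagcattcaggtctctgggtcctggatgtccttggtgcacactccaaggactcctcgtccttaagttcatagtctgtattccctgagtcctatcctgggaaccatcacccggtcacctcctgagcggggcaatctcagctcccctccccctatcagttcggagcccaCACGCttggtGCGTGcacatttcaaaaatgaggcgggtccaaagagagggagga

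Genes outside the 10 were ranked by how near their profile over the 9 libraries was to the mean profile of the 8 of the 10 genes that lie before the stop. Likeness was the root mean square difference of centred log2 CPM, over 7573 genes of at least 10 CPM, whose median difference was 0.660, while the 8 genes themselves ranged from 0.100 for Tpi1 to 0.402 for Slc16a3. Predicted genes with Gm or Rik names were left out, so the copies Gm5506 and Gm12070 were not ranked. Of the genes ranked, the 5 nearest were Aifm2 (0.092), an oxidoreductase that limits lipid peroxidation, Prdx5 (0.092), a peroxiredoxin, Aprt (0.119), an enzyme of adenine salvage, Myo10 (0.124), a myosin of filopodia, and Msrb1 (0.133), a reductase of oxidised methionine. Prdx5, for instance, had 76.5, 60.2, 106, 81.6 and 88.4 CPM in day 14 replicates 1 to 5 and 260, 177, 183 and 206 CPM in day 4 replicates 1 to 4. As for most of the glycolytic genes, its highest values were in day 14 replicate 3 and day 4 replicate 1.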

How the data were processed

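Wound macrophage RNA was sequenced as paired ends from TruSeq RNA v2 libraries, per the labels' protocols. The submitters' processing notes name mm10, Partek 6.6, DESeq2, HISAT2 2.1.0, CASAVA 1.8 and SAMtools 1.4; the role of each tool and the gene annotation are not given in the sources used here. Estimated counts, not normalized, were deposited by the authors for 18303 gene symbols, and a mean of 17.2% of values per library are not whole; they were rounded. They also deposited normalized values, a signal on the scale of scaled counts, used here to look at the library whose counts stop: Pgk1 and Pkm are listed there as 1. No column was left out.

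Gene positions came from RefSeq on GRCm38.p6, where 17103 symbols matched, 1113 by an older name and 87 not. Genes before the stop (16712) were fitted with 9 libraries and those beyond it (1591) with 8 libraries, without day 14 replicate 5, in edgeR 4.0.16 under R 4.3.3 (TMM on counts before the stop, filterByExpr, robust glmQLFit, two-sided glmQLFTest), with Benjamini-Hochberg adjustment over both and a threshold of 0.05. Standard errors were derived from the F statistic. On simulated data (13304 genes, 40 changed genes of each size), this step called 100% at log2 fold changes of -2 and 1, 90% at -1, 67.5% at -0.6 and 85% at 0.6. Every simulated gene had the same dispersion, and changed genes were drawn from those above a minimum mean count. The rates therefore need not hold for genes that vary more between libraries, such as Slc16a3, Aldoc and Eno1 at day 14. Same-day libraries differed beyond sampling noise, with 11.6 to 79.6 times the chi-square that counting alone gives. Isoenzyme ratios were tested with exact permutation in SciPy 1.17.1. Copies were sought with BLAST 2.17.0 among GENCODE release M21 transcripts, and rows of copies with at least 99% identity were added to those of Eno1 and Gapdh, a step chosen after seeing the data.

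The genes and lists were chosen with earlier results of these data known. Named were the 10 genes, all listed isoenzymes and carriers but 1 that is not reported here, and from each other list the 3 with the lowest p among those called and the most abundant; the 5 most like genes; where 5 or fewer changed the rest are named too, and these, the copies, overlapping genes and markers were picked with values in view. The alternatives took total-count, RLE or upper-quartile scaling, DESeq2 1.42.0, limma-voom (limma 3.58.1), no filter or a filter of 5 CPM in 4 libraries, non-robust dispersion, all 9 libraries for all genes, library size or fibroblast markers as a covariate, the 6 shallower libraries, leaving out each library, and other pseudocounts for ratios.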

Additional observations from a re-analysis of the deposited data

Results flagged for a closer look

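In 2 of 20 groups of libraries tested (each gene on each day), 1 library lay farther from the others than a gap test at the 95% level allows, and chance flags about 1 in 20 groups. Pgk1 in day 4 replicate 1 was the highest of its day at 295 CPM, against 190 to 203 CPM in the other day 4 libraries. Eno1 in day 4 replicate 2 was the lowest of its day at 11.5 CPM, against 16.7 to 17.3 CPM in the others. Without day 4 replicate 1 the log2 fold change of Pgk1 was -1.09, against -1.25 with it.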

How the results depend on the processing

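Over 22 alternative fits, all 220 log2 fold changes of the 10 genes stayed negative, and 211 kept their side of the threshold. Calls were lost for Aldoc and Pkm with fibroblast markers as a covariate (given above), and for Pgk1 (-1.58, adjusted p = 0.364) and Pkm (-1.46, adjusted p = 0.478) with all 9 libraries for all genes, where 1 library holds 0 counts of them. Slc16a3 gained a call under DESeq2 (adjusted p = 0.0324), limma-voom (0.0260), the 5 CPM filter (0.0442), non-robust dispersion (0.0290) and without day 14 replicate 3 (0.000245); over all alternatives its adjusted p ranged from 0.000245 to 0.626.

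Over the whole table, 1031 genes rose and 1044 fell in the 6 shallower libraries, where fewer samples were tested, and 576 rose and 387 fell with the fibroblast covariate, against 2149 and 1990; without each library in turn, 1596 to 2454 rose and 1442 to 2371 fell. Of all calls, 48.1% were lower at day 14, but 42.1% with upper-quartile scaling. Of the 3 ratios, none of which passed, 2 had no stable sign: Aldoa to Aldoc differed by 0.13 without a pseudocount and by -0.16 to 0.08 without 1 library, and Ldha to Ldhb by 0.05 and by -0.21 to 0.09. Pgam5 (-0.04) lay between -0.09 and 0.02 without 1 library, and Eno4 to -0.27 with the fibroblast covariate. The cause was not tested. Slc16a3 to Slc16a1 stayed negative and ranged from -2.13 to -1.54 without 1 library. No paired analysis was possible because the labels number no replicates; the numbers here follow accession order and pair nothing. Depth limits Aldoc and the Eno1 row most.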

Other observations

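Gapdh is often used as a reference gene for normalization, and in these libraries it fell by 1.10 on the log2 scale. Other genes used for that purpose, chosen after the values of Gapdh were seen, were set beside it. Actb averaged 2077 ± 248 CPM at day 14 and 1982 ± 284 CPM at day 4 (SD, n = 5 and 4; log2 fold change 0.07, adjusted p = 0.697). B2m averaged 3173 ± 461 CPM at day 14 and 3271 ± 272 CPM at day 4 (log2 fold change -0.04, adjusted p = 0.803), and Rplp0 averaged 346 ± 18.3 CPM at day 14 and 378 ± 19.9 CPM at day 4 (log2 fold change -0.13, adjusted p = 0.227). Ppia and Hprt had log2 fold changes of 0.28 and 0.37 (adjusted p = 0.0579 and 0.0555), Ywhaz of 0.15 and Tbp of -0.15 (adjusted p = 0.353 and 0.267), all by edgeR's quasi-likelihood test. For these 7 genes the libraries of the 2 days overlapped.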
